A study of Mus musculus with 32 samples.

Results

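The chromatin sites of Ikaros and of CHD4 were compared 1 h after Ikaros was induced in B3, a line of mouse pre-B cells that grew from a lymphoma. The 2 HA-Ikaros and 2 CHD4 peak lists of that time were merged into 17874 regions, of the 43270 regions that all 24 peak lists of the series form together. A region entered one of 3 classes by the lists that called it. In the first class it was called in all 4 lists (2564 regions), in the second in both Ikaros lists and no CHD4 list (3904 regions, "Ikaros only" from here on), and in the third in both CHD4 lists and no Ikaros list (157 regions, "CHD4 only"). The other 11249 regions, 62.9% of the merged set, had a mixed pattern, mostly because a single list called them.

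All cells compared carried a retrovirally introduced Ikaros fused to an HA tag and to ERt2, a receptor domain used to hold a fusion out of the nucleus until 4-hydroxytamoxifen (4-OHT) is given. In these cells many sites already had an HA call without 4-OHT, as given below with the other times. The 4 libraries came from cells given 500 nM 4-OHT for 1 h, and libraries of untreated cells (0 h) and of cells treated for 30 min and 2 h were used for comparison. Anti-HA beads recovered the introduced Ikaros and not the cell's own protein, an antibody against CHD4 recovered the endogenous remodeller, and an antibody to the acetylated residue recovered histone H3 acetylated at lysine 27 (H3K27ac). The labels number the replicates but do not say whether they were separate cultures, so the spread between them may be technical.

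Ikaros is a zinc finger protein that lymphocytes need for their development, and it binds DNA at sites with a GGGAA core, written TTCCC on the other strand. CHD4 is the motor subunit of NuRD, a complex that joins a nucleosome remodeller to histone deacetylases, and Ikaros is one of the DNA-binding proteins it associates with in lymphocytes. H3K27ac marks active promoters and enhancers, and its removal accompanies their silencing. Comparing the 2 sets of sites asks where the introduced Ikaros was accompanied by the remodeller soon after 4-OHT was given.

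The sequences below show the strongest regions of each class, with the GGGAA or TTCCC core in capitals. Each is 61 bases of mm10, plus strand, around the Ikaros summit of replicate 1 or, in the CHD4-only class, around the centre of the CHD4 peak of replicate 1, and each carries the name of the gene with the nearest transcription start site (TSS).
Gm9025, all 4 lists, chr13:111936382-111936442: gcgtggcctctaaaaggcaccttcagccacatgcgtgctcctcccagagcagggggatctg
Gm23260, all 4 lists, chr8:77221368-77221428: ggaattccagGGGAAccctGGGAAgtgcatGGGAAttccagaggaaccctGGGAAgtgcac
Sde2, all 4 lists, chr1:180850708-180850768: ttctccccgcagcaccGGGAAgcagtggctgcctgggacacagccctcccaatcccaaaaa
Phf23, Ikaros only, chr11:69995548-69995608: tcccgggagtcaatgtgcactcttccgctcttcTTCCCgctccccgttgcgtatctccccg
Hnrnpul2, Ikaros only, chr19:8819355-8819415: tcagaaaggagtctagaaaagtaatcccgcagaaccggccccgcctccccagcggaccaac
Oard1, Ikaros only, chr17:48410095-48410155: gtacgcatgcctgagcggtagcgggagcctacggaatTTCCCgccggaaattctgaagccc
Gm13403, CHD4 only, chr2:33934254-33934314: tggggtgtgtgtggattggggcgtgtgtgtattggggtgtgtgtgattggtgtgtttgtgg
Gm22118, CHD4 only, chr13:107859092-107859152: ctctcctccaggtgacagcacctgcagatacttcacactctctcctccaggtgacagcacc
Gm21887, CHD4 only, chrX:170013875-170013935: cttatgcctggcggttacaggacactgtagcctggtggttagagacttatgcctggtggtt
The core was present in 2 of the 3 windows of the first class, in 2 of 3 of the Ikaros-only class and in 0 of 3 of the CHD4-only class. The Gm23260 window held it 4 times, and repeated stretches are also visible in the 3 CHD4-only windows.

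The Ikaros lists held 12447 and 14874 peaks (replicates 1 and 2) and the CHD4 lists 5446 and 5027. Median peak width was 496 and 545 bp for Ikaros and 658 and 699 bp for CHD4. Replicates overlapped only in part: 77.1% and 63.2% of the Ikaros peaks, and 55.2% and 59.6% of the CHD4 peaks, met a peak of the other replicate. The most common background level was 2.520 and 2.233 fragments per base in the Ikaros lists, a level that 60.97% and 37.0% of their peaks had. Depth is unknown for CHD4, whose peaks were called in broad mode. The median fold over background was 3.55 and 3.47 for CHD4 and 4.83 and 4.64 for Ikaros, and a −log10 q of at least 3 was reached by 27.2% and 12.5% of the CHD4 and 85.5% and 81.9% of the Ikaros peaks. In broad mode these values are averages over a peak and in narrow mode they are summit values, so they do not compare the strength of the proteins. A region missing from a list was below that list's threshold and was not shown to be unbound. As a check of the cell label, H3K27ac lay within 1 kb of a TSS in both 1 h lists for 12 of 12 pre-B cell genes, 2 of 8 T cell genes (Cd3d and Trac), 0 of 8 myeloid genes and 0 of 8 genes of non-blood tissues, against 43.1% of all protein-coding genes.

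CHD4 was called mostly where Ikaros was called, and Ikaros at many sites where CHD4 was not. Of the CHD4 peaks of replicate 1, 78.1% met an Ikaros peak of replicate 1 and 82.3% one of replicate 2. For replicate 2 of CHD4 the shares were 72% and 81.9%. In the other direction, 37.7% and 32% of the Ikaros peaks of replicate 1 met a CHD4 peak of replicates 1 and 2, and 32.7% and 30.1% of those of Ikaros replicate 2 did so. Among the 3007 regions called in both CHD4 lists, 16.8% of the merged set, 85.3% were in both Ikaros lists and 5.22% in neither. Of all merged regions 49.8% were in both and 6.46% in neither. The merged set was built from the same Ikaros and CHD4 lists, so every merged region in neither Ikaros list had a CHD4 call. The shares over all merged regions are therefore no background rate for Ikaros calls. Among the 8905 regions called in both Ikaros lists, 28.8% were in both CHD4 lists, 27.4% in exactly 1 and 43.8% in neither.

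The sizes of the exclusive classes depended on the lengths of the lists. When each list was cut to its strongest peaks by −log10 p, as many as the shortest list holds, 726 regions were Ikaros only, 644 were CHD4 only and 1526 were in all 4 lists. With a −log10 q of at least 3 in all lists, a limit that is not the same measure in broad and narrow mode, the counts were 6201, 33 and 268. The numbers also moved with single libraries. Without Ikaros replicate 1 the Ikaros-only class held 8456 regions and without Ikaros replicate 2 it held 6517. The CHD4-only class held 383 regions without Ikaros replicate 2, 741 without CHD4 replicate 1 and 663 without CHD4 replicate 2. The class called in all lists held 4021 regions without CHD4 replicate 2.

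The chance that an Ikaros peak had a CHD4 peak rose with the strength of the Ikaros peak. Each Ikaros list was divided into deciles by the fold of its peaks, from 1 (lowest) to 10 (highest). In the lowest decile of Ikaros replicate 1, whose median fold was 3.16, 22.5% of the peaks met a CHD4 peak of replicate 1 and 22.9% one of replicate 2. In its highest decile, with a median fold of 9.09, the shares were 76.0% and 61.8%. In Ikaros replicate 2 the lowest decile had shares of 23.7% and 16.4% and the highest 69.7% and 69.2%. In the 4 pairs of lists the share lay between 14.7% and 23.7% in the 4 lowest deciles and rose with each further decile.

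Averaged over the CHD4 lists, the highest decile exceeded the lowest by 47.8 ± 2.25 percentage points (SD over the 2 Ikaros lists, n = 2). The mean share was 21.4% in decile 1, 20.3% in decile 4, 29.6% in decile 6, 41.8% in decile 8 and 69.2% in decile 10, with SDs over the Ikaros lists of 0.358 to 3.98 in those deciles. The Ikaros peaks themselves were recalled better as they became stronger: 60.3% of the lowest and 98.8% of the highest decile of replicate 1 were met in replicate 2. The peaks also became wider, from a median of 349 to 899 bp in replicate 1 and from 382 to 1003.5 bp in replicate 2. The difference between the outer deciles was 24.8 points with lists of equal size and 21.6 points with a −log10 q of at least 3. It was 47.5 points when every Ikaros peak was taken as 200 bp around its summit. The parts of peak width and of recall in the rise were not tested.

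**Figure D1:**
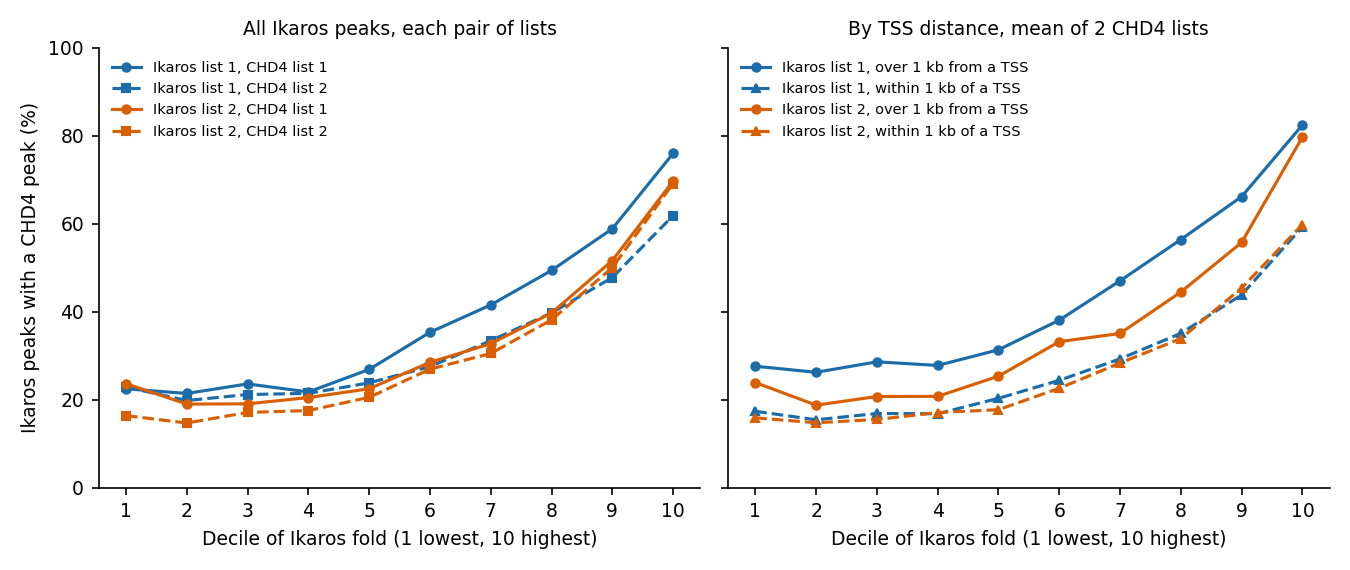
Share of Ikaros peaks at 1 h that met a CHD4 peak at 1 h (%, y axis) by decile of the Ikaros fold within its list (x axis), left for each of the 4 pairs of lists and right for peaks within and beyond 1 kb of a TSS, as the mean of the 2 CHD4 lists. All 4 curves on the left rise to between 61.8% and 76.0% in decile 10, and on the right the curves of distal peaks lie above those of promoter peaks in every decile.

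At equal Ikaros strength, CHD4 was found more often at distal peaks, over 1 kb from any TSS, than at promoter peaks. In decile 10 of Ikaros replicate 1, 82.4% of the distal and 59.3% of the promoter peaks met a CHD4 peak, as the mean of the CHD4 lists. In replicate 2 the shares were 79.7% and 59.8%. In decile 1 they were 27.6% and 17.4% in replicate 1 and 23.9% and 15.9% in replicate 2.

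Within deciles the distal share exceeded the promoter share by 12.0 ± 4.69 points on average (SD over the 2 Ikaros lists, n = 2), and in each of the 4 pairs of lists it was higher in 10 of 10 deciles. The smallest single difference was 0.573 points, in Ikaros replicate 2 against CHD4 replicate 1. Among peaks that also had H3K27ac in both 1 h lists the difference was 17.3 ± 4.49 points, again positive in 10 of 10 deciles for each pair. This difference was not tested further, and the 4 pairs share 2 Ikaros and 2 CHD4 libraries.

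CHD4 also followed H3K27ac at equal Ikaros strength. Ikaros peaks with H3K27ac in both 1 h lists met a CHD4 peak more often than other Ikaros peaks of the same decile, by 20.7 ± 0.303 points on average (SD, n = 2 Ikaros lists), in 10 of 10 deciles for each pair. In decile 10 the mean shares were 70.9% with and 43.2% without the mark. In decile 1 they were 23.6% and 14.6%, and in decile 2 they were 22.5% and 6.17%. The marked peaks were also wider, with a median of 922 against 543 bp in decile 10 of replicate 1 and 1033 against 616 bp in replicate 2, and the part of width in this difference was not tested. Ikaros peaks that were already called in both 0 h Ikaros lists also met CHD4 more often than those called in neither, by 14.3 ± 3.08 points within deciles, and they too were wider (960 against 611.5 bp and 1088.5 against 774 bp in decile 10). The share among peaks called in neither 0 h list still rose, from 17.0% in decile 1 to 60.6% in decile 10.

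The share of CHD4 peaks that met Ikaros also rose with CHD4 fold, from a higher start. Of the CHD4 peaks of replicate 1, 58.5% of the lowest decile by fold and 88.8% of the highest met an Ikaros peak of replicate 1. For replicate 2 of both proteins these shares were 67.3% and 89.5%, for CHD4 replicate 1 against Ikaros replicate 2 they were 70.4% and 90.8%, and for CHD4 replicate 2 against Ikaros replicate 1 they were 63.9% and 78.7%. Peaks that met neither Ikaros list made up 23.7% and 27.7% of the lowest decile in the 2 CHD4 lists and 6.42% and 9.34% of the highest. Across the 2564 regions in all 4 lists, the mean fold percentile of Ikaros and that of CHD4 were related with a Pearson's r of 0.427 and a Spearman's rho of 0.433, a description over regions that are wide or narrow together and not over samples.

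The 3 classes lay at different distances from genes. Of all merged regions 51.2% lay within 1 kb of a TSS. Among regions in all 4 lists the share was 43.4% (95% Wilson interval over regions 41.5% to 45.4%), among Ikaros-only regions 62.9% (61.4% to 64.4%) and among CHD4-only regions 41.4% (34.0% to 49.2%). These intervals cover counting error only, since regions are not replicates. The median distance to a TSS was 2314 bp, 104 bp and 2361 bp in the same order.

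Regions in all 4 lists were at promoters less often than Ikaros-only regions, by 19.5 percentage points (interval −21.9 to −17.0), although they were wider, with a median of 1601 against 682.5 bp. Without Ikaros replicate 1 the difference was −11.04 points. Regions with 2 Ikaros lists and exactly 1 CHD4 list were intermediate, with 55.3% at promoters. The CHD4-only and the 4-list regions differed by −2.05 points, with an interval of −9.99 to 5.89, which includes 0. The interval excluded 0 without CHD4 replicate 1 (−7.86 points), without CHD4 replicate 2 (−6.00), without Ikaros replicate 2 (−5.49) and with lists of equal size (−4.80), and with 200 bp summit windows the difference was 5.07 points. A TSS lay inside 35.3% of the 4-list regions, 45.3% of the Ikaros-only and 18.5% of the CHD4-only regions. By the position of the centre, 44.1%, 40.1% and 40.8% were intronic, 40.2%, 32.6% and 50.3% intergenic, and 8.15%, 16.2% and 4.46% lay in an untranslated region of a transcript.

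**Figure D2:**
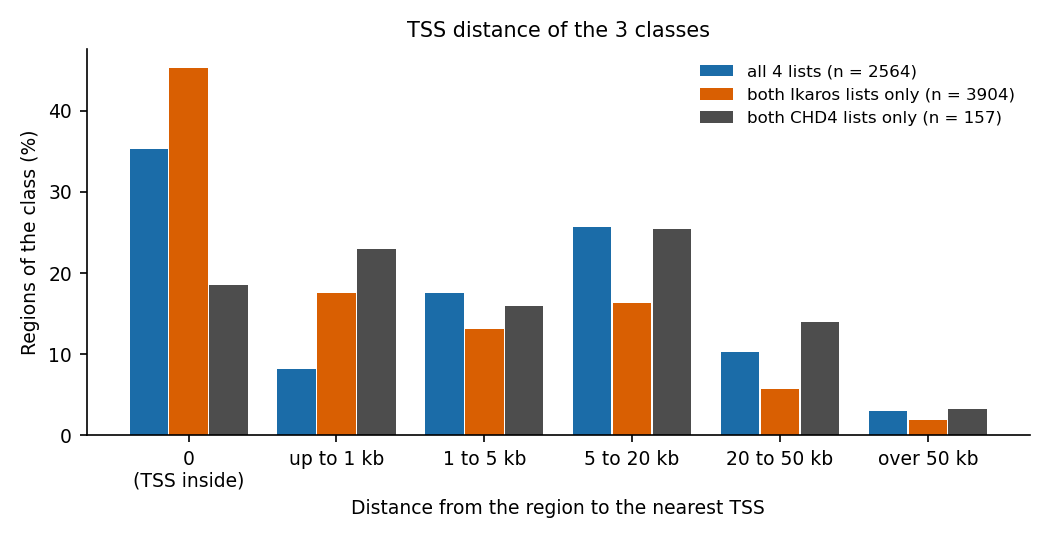
Share of the regions of each class (%, y axis) by distance from the region to the nearest TSS (x axis, 6 bins), for regions in all 4 lists, in both Ikaros lists only and in both CHD4 lists only. The Ikaros-only class has the tallest bars in the bin with a TSS inside, at 45.3%, and the 4-list class has 25.7% of its regions between 5 and 20 kb, against 16.3% of the Ikaros-only class.

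The same contrast stood between whole lists. Promoter peaks made up 53.8% and 49.9% of the Ikaros lists and 44.2% and 42.4% of the CHD4 lists, a difference of 8.51 points in which the groups did not overlap. H3K27ac in both 1 h lists was met by 84.4% and 81.2% of the Ikaros peaks and by 90.3% and 89.8% of the CHD4 peaks, a difference of −7.22 points. With 2 lists against 2, the exact two-sided permutation p was 0.333 for each of the 4 measures compared (number, width, promoter share and H3K27ac share; adjusted p = 0.333), the smallest this design allows. With lists of equal size the Ikaros peaks were wider than the CHD4 peaks by 80 bp in place of narrower by 158 bp, and the difference in H3K27ac share was 0.298 points, while the promoter difference was 9.89 points. With a −log10 q of at least 3 the promoter difference was 16.2 points and the H3K27ac difference −3.93 points.

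H3K27ac accompanied nearly every region that Ikaros and CHD4 shared. Of all merged regions 78.7% met an H3K27ac peak in both 1 h lists. The share was 97.0% of the 4-list regions, 82.6% of the Ikaros-only and 65.0% of the CHD4-only regions, and it was 92.3% of the regions with 2 Ikaros lists and exactly 1 CHD4 list. In the 1 h H3K27ac libraries taken singly (replicates 1 and 2), the 4-list regions had a peak in 98.3% and 97.3%, the Ikaros-only regions in 87.8% and 83.6% and the CHD4-only regions in 70.1% and 68.2%.

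The 8 H3K27ac libraries of the series, 2 per time, gave the same order of classes. Over them the share averaged 97.9% ± 0.620 (SD, n = 8) for 4-list regions, 86.9% ± 2.82 for Ikaros-only and 69.1% ± 3.08 for CHD4-only regions. The 4-list regions exceeded the Ikaros-only regions by 10.9 ± 2.25 points and the CHD4-only regions by 28.7 ± 3.09 points, in 8 of 8 libraries each. The exact two-sided sign-flip permutation p was 0.00781 for each, the smallest that 8 libraries can give, and 0.00781 after adjustment over 5 such comparisons. The libraries read the same regions in one cell line, so this p speaks for the spread over H3K27ac libraries and not over Ikaros or CHD4 lists. It also takes the 8 libraries as independent, which the labels do not establish. The difference from the CHD4-only class was 8.996 points with lists of equal size, 47.8 points with a −log10 q of at least 3 and 14.4 points without Ikaros replicate 2, and that from the Ikaros-only class was 18.9 points without Ikaros replicate 1, 4.18 points with a −log10 q of at least 3 and 7.16 points with lists of equal size.

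Where the mark was present, its level was highest in the 4-list class. A peak's rank was taken as the percentile of its fold within its own H3K27ac list. The median rank averaged 85.6 ± 1.98 in the 4-list regions (SD, n = 8 libraries), 71.9 ± 3.36 in Ikaros-only and 72.5 ± 4.73 in CHD4-only regions. The 4-list regions were higher than the Ikaros-only regions by 13.7 ± 1.71 and than the CHD4-only regions by 13.0 ± 3.06 percentile points, in 8 of 8 libraries (exact sign-flip permutation p = 0.00781, adjusted p = 0.00781). At equal Ikaros strength, within deciles of the mean Ikaros fold rank, regions with both CHD4 lists had H3K27ac more often than those with none by 9.52 ± 1.97 points, in 8 of 8 libraries (exact sign-flip permutation p = 0.00781, adjusted p = 0.00781). That difference was 2.70 points with a −log10 q of at least 3 and 16.8 points without Ikaros replicate 1, and the rank difference from the CHD4-only class was 7.07 without CHD4 replicate 2.

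The wider regions of the 4-list class had more room to meet an H3K27ac peak. At a window of 200 bp at the centre of each region, an alternative chosen after seeing the data, the 4-list regions exceeded the Ikaros-only regions by 11.4 points. Among promoter regions the H3K27ac shares were close, at 98.9% and 98.3% (1 h replicates 1 and 2) in the 4-list class, 94.3% and 91.3% in the Ikaros-only and 95.4% and 93.8% in the CHD4-only class. Among distal regions they were far apart, at 97.8% and 96.5%, 76.8% and 70.4%, and 52.2% and 50%. In a comparison over the 8 libraries that was also chosen after seeing the data, the distal regions of the 4-list class exceeded those of the Ikaros-only class by 21.7 points in share and 24.3 percentile points in rank, and those of the CHD4-only class by 46.3 and 19.6.

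**Figure D3:**
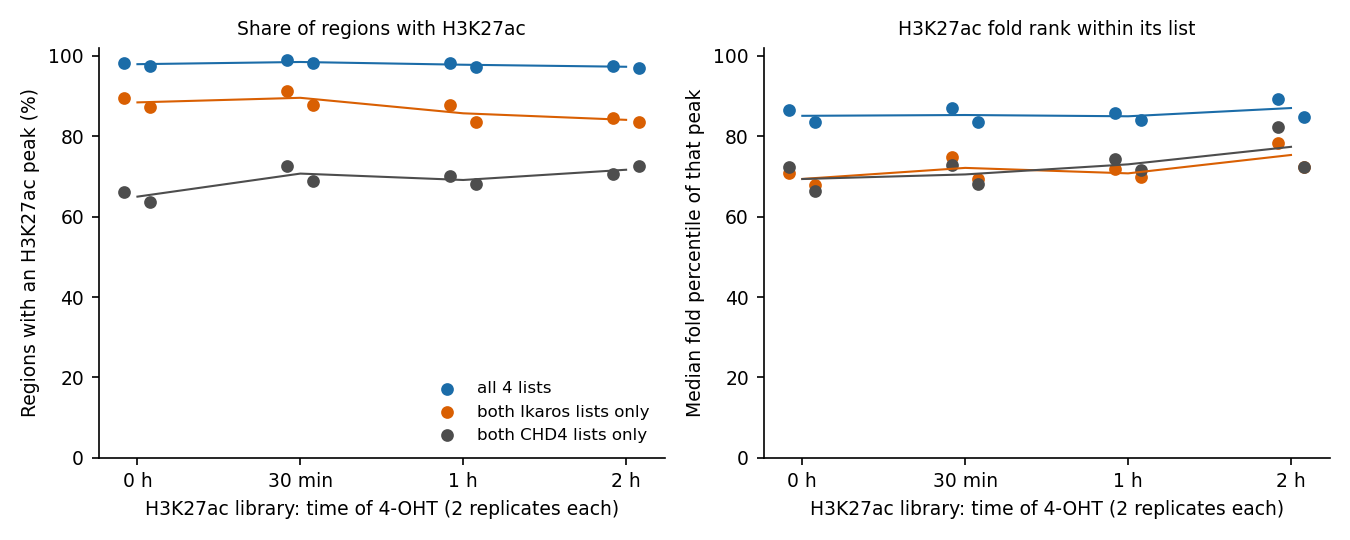
For each of the 8 H3K27ac libraries (x axis, by time of 4-OHT, 2 points per class and time) the share of the regions of each class with an H3K27ac peak (left, %) and the median percentile of that peak's fold within its list (right). Lines join the means of the 2 replicates. The 4-list class lies at 97.0% to 98.8%, above every point of the other classes, and the Ikaros-only and CHD4-only points overlap only in the right panel.

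The classes of 1 h were partly in place before induction. Regions in all 4 lists were called in 69.1% and 76.9% of cases in the 0 h Ikaros lists (replicates 1 and 2), 86.2% and 70.2% at 30 min and 94.97% and 96.5% at 2 h. Ikaros-only regions were called less often, in 44.6% and 50.2% at 0 h, 53.9% and 25.8% at 30 min and 70.3% and 76.6% at 2 h. Over all merged regions the 0 h Ikaros shares were 34.3% and 40.6%. A large part of both classes thus had an HA call before 4-OHT.

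In the CHD4 lists, regions in all 4 lists were called in 48.4% and 77.1% of cases at 0 h, 70.0% and 61.2% at 30 min and 62.2% and 90.7% at 2 h. Ikaros-only regions were called in 5.53% and 21.1% at 0 h, 11.8% and 8.17% at 30 min and 11.9% and 34.8% at 2 h. In both classes the 2 CHD4 replicates of 0 h, and those of 2 h, lay further apart than the means of any 2 times. In the 6 CHD4 lists of other times, 1.60% of the 4-list regions and 45.4% of the Ikaros-only regions (1774 of 3904) were called in no list. In each of these 6 libraries, which had no part in setting the classes, CHD4 was called more often in the 4-list class. The 4-list regions were also wider (median 1601 against 682.5 bp), with more room to meet a peak of either protein. The part of width in the calls of other times was not tested.

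CHD4-only regions were called by Ikaros in 5.10% and 8.28% of cases at 0 h, 6.37% and 2.55% at 30 min and 26.8% and 29.9% at 2 h. Over all merged regions the Ikaros shares, leaving out 1 h, were also highest at 2 h, with 57.8% and 62.0%, after 34.3% and 40.6% at 0 h and 42.5% and 25.9% at 30 min, and the class was chosen for having no Ikaros call at 1 h. In the CHD4 lists the same regions were called in 32.5% and 61.1% at 0 h and 55.4% and 88.5% at 2 h, and 5.73% of them (9 of 157) were called in no CHD4 list of another time.

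**Figure D4:**
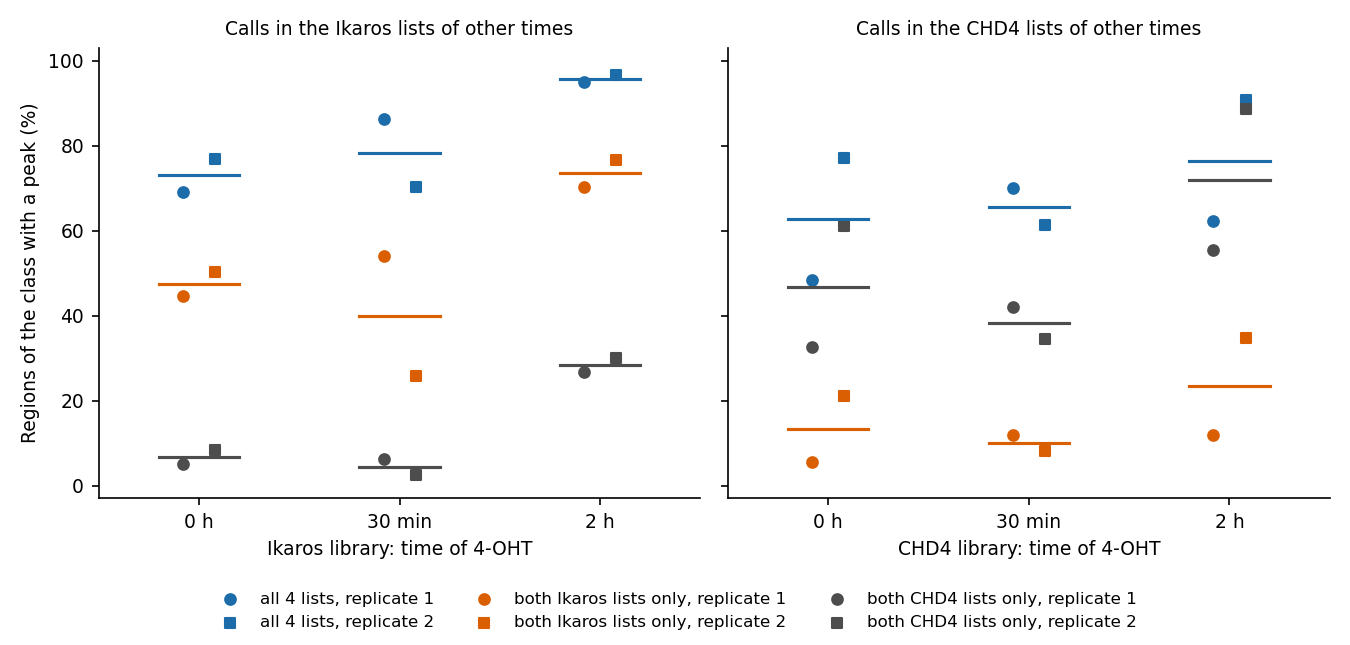
Share of the regions of each class (%, y axis) called in the Ikaros lists (left) and the CHD4 lists (right) of 0 h, 30 min and 2 h (x axis), with 1 point per replicate and a bar at the mean of 2. The 1 h lists set the classes and are left out. The 4-list class lies above the Ikaros-only class in each of the 12 libraries, and CHD4-only regions reach 26.8% and 29.9% in the 2 h Ikaros lists.

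Sequence around the Ikaros summits was compared by counting words in 101 bases centred on the summit, on both strands, and in flanks of the same length 400 to 500 bp away. The core word was above its flanks in both classes. It was present in 40.6% ± 1.35 of the windows of 4-list regions (SD over the 2 Ikaros lists, n = 2) and in 42.2% ± 0.942 of those of Ikaros-only regions, against 26.7% and 28.0% in their flanks. Among all Ikaros peaks the share was 39.6% ± 1.70. In the bins of 25 bp on either side of the summit its density was 0.537 to 0.602 per 100 bp over both classes and both lists, and in the farthest bin upstream it was 0.305 to 0.353.

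**Figure D5:**
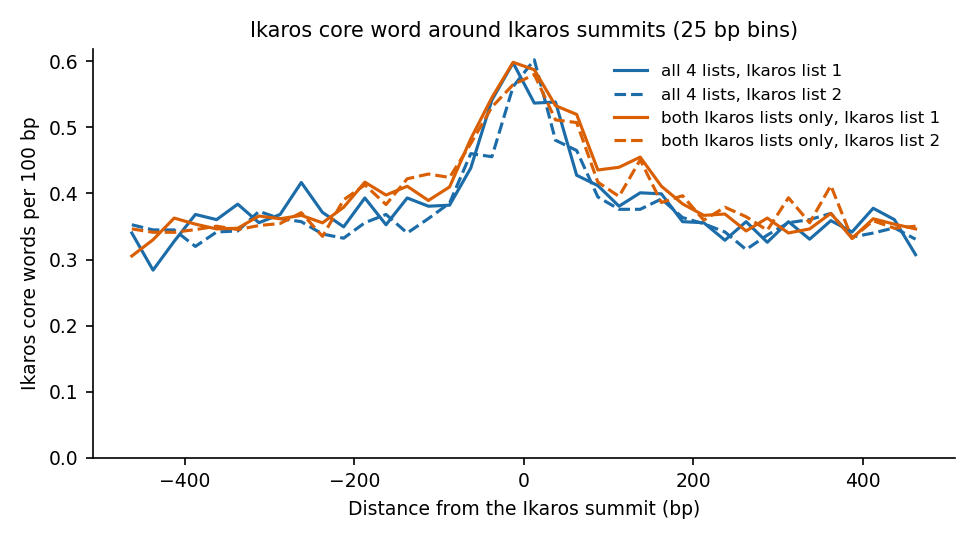
Density of the Ikaros core word in either orientation (per 100 bp, y axis) by distance from the Ikaros summit (bp, x axis, bins of 25 bp) for regions in all 4 lists and Ikaros-only regions, with a line for each Ikaros list. The 4 lines reach 0.537 to 0.602 beside the summit and fall to 0.305 to 0.353 at the left edge.

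Of the 6 other words counted, some differed between the classes, in part with promoter position. The RUNX word TGTGGT was present in 13.0% ± 0.689 of the 4-list windows and 9.18% ± 0.199 of the Ikaros-only windows, and the flanks held it in 7.83% and 6.19%. RUNX proteins are transcription factors of blood cells. Among promoter regions the shares were 9.61% ± 0.762 and 5.82% ± 0.576, and among distal regions 15.6% ± 0.634 and 14.9% ± 0.440. The EBF1 word TCCCNNGGG, which can overlap the Ikaros core, was present in 10.0% ± 0.248 and 7.01% ± 0.453 of all windows and in 11% ± 0.244 and 9.19% ± 0.195 of distal windows. EBF1 is a factor that sets B cell identity. The E-box word CAGGTG was present in 10.3% ± 0.441 and 8.45% of all windows and in 11.7% ± 0.536 and 9.84% ± 0.342 of distal windows. The CTCF words AGGTGGC and AGGGGGC were present in 5.91% ± 0.359 and 5.75% ± 0.127 of all windows, in 6.72% ± 0.439 and 4.56% ± 0.684 of distal windows and in 4.85% ± 0.254 and 6.45% ± 0.605 of promoter windows, so that the direction differed by position. The AP-1 word TGACTCA was present in 2.26% ± 0.165 and 1.78% ± 0.199. The ETS word CCGGAA went the other way, with 6.24% ± 0.110 in 4-list and 8.93% ± 0.163 in Ikaros-only windows, and 4.34% ± 0.293 and 4.01% in distal windows.

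Base composition followed the same division. The 201 bases around the summit held a mean of 6.42 ± 0.169 CpG dinucleotides in 4-list regions and 9.22 ± 0.137 in Ikaros-only regions (SD, n = 2 Ikaros lists). At promoters the means were 9.62 ± 0.366 and 12.3 ± 0.224, and at distal regions 3.96 ± 0.0180 and 3.97 ± 0.0112. GC content was 54.4% ± 0.436 and 56.6% ± 0.456. CpG counts were therefore lower in 4-list than in Ikaros-only regions at promoters, and differed by less than the spread between lists at distal regions. Promoter position was measured from the edge of a region, and 4-list regions were wider (median 1601 against 682.5 bp). Their summits could thus lie farther from a TSS, also in the promoter shares of the words above, and this was not tested. These words and counts describe letters in these windows and not binding sites.

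The peaks of the 4-list class overlap by the way the class was made, and their positions are given as a description. The Ikaros summit and the centre of the strongest CHD4 peak were apart by a median of 240.5 to 268 bp over the 4 pairs of lists. The summit lay inside that CHD4 peak in 78.8% to 84.4% of the regions. More than 1 Ikaros peak lay in 19.2% and 17.2% of the regions for the 2 Ikaros lists. As a description of lists that also set the classes, the median Ikaros percentile was 76.5 and 82.0 against 48.9 and 52.3 for Ikaros-only regions, and the median CHD4 percentile was 61.8 and 57.6 against 39.5 and 30.2 for CHD4-only regions.

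The strongest regions of the 4-list class were taken by the mean fold percentile over the 4 lists. Of the first 8, 1 lay within 1 kb of a TSS, where 43.4% of the class did. The first, an intergenic region at chr13:111935027-111937152, had Ikaros folds of 16.9 and 19.9 (replicates 1 and 2) and CHD4 folds of 5.00 and 5.54. Its nearest TSS was that of the pseudogene Gm9025, and its nearest protein-coding TSS that of Map3k1, a kinase of stress signalling, 126034 bp away. It carried H3K27ac in 8 of 8 libraries and was called in the 6 Ikaros and 6 CHD4 lists of other times.

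The Sde2 region at chr1:180849735-180851323, at the TSS of a gene of genome maintenance, had Ikaros folds of 15.3 and 15.5 and CHD4 folds of 5.10 and 4.60. Regions inside Pax7 (nearest TSS Tas1r2), Milr1, a receptor of mast cells (nearest TSS Gm25889), Fam163b (nearest TSS Adamtsl2) and Colq (nearest TSS Gm24057) followed, with Ikaros folds between 10.4 and 15.2 and H3K27ac in 8 of 8 libraries. The regions named for Gm23260 and Gm4279, within introns of Nr3c2 and Snx29, had CHD4 folds of 7.72 and 4.80 and of 6.19 and 4.46 but H3K27ac in 0 of 8 libraries. These 2 were among the 1.44% of 4-list regions with no H3K27ac at 1 h, and the Gm23260 window is the one whose core words repeat.

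Of the 8 strongest Ikaros-only regions, 8 lay within 1 kb of a TSS, where 62.9% of the class did. They belonged to Phf23, Hnrnpul2, Oard1, Ino80, Ppp2r1a, Emsy, Rbbp4 and Kmt5c. Phf23, which encodes a PHD finger protein, had Ikaros folds of 14.5 and 14.3 and no CHD4 call in the 6 other CHD4 lists. Ino80 encodes the motor of another remodelling complex and had Ikaros folds of 17.0 and 10.7, with a CHD4 call in 3 of those 6 lists. Hnrnpul2 also had 3 such calls, Ppp2r1a had 2, Oard1 and Emsy had 1 each and Kmt5c had 0. Rbbp4 encodes a histone-binding subunit of NuRD itself, and its promoter region at chr4:129334881-129336492 had folds of 11.4 and 13.0, with no CHD4 call at any time. H3K27ac was present in 8 of 8 libraries at 7 of these regions and in 6 at Kmt5c.

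The CHD4-only class was small and rich in repeats. Repeat-masked bases made up a median of 30.1% of its regions, against 15.3% of the 4-list and 7.63% of the Ikaros-only regions. More than 50% of the bases were masked in 28.0% of CHD4-only regions (44 of 157), 2.34% of 4-list and 0.948% of Ikaros-only regions. Of the 157 regions, 21 lay in 4 clusters of 3 or more within 100 kb of each other. The largest had 10 regions at chr6:47653842-47779317, with a median of 27.1% masked bases, and 2 of the 10 met H3K27ac in both 1 h lists. The RefSeq gene Rn4.5s, which encodes a small RNA of rodents, lies near its left edge. Other RefSeq genes also lie in this span. Another had 5 regions at chrX:94890505-94974136, with a median of 92.9% masked bases and H3K27ac in 0 of 5. A cluster of 3 regions covered Erdr1 on the X chromosome, with 78.8% masked bases and H3K27ac in 1 of 3. The last, of 3 regions on chromosome 19, had 23.7% masked bases and H3K27ac in 3 of 3.

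Outside clusters and with at most 50% masked bases, 100 CHD4-only regions were left. Of these 48% were at promoters and 76% had H3K27ac in both 1 h lists. Whether repeats played a part in the calls was not tested. Among the 8 strongest, the regions named for Gm13403 (CHD4 folds 9.83 and 8.31), Gm22118 (7.42 and 5.08), Cacng4 (5.15 and 6.53) and n-R5s23 (5.59 and 4.35) had H3K27ac in 0 of 8 libraries. Masked bases made up 45.6%, 0%, 16.2% and 0.420% of these regions. The region named for Gm21887, inside the Erdr1 cluster, had CHD4 folds of 5.53 and 5.56, 78.8% masked bases and H3K27ac in 8 of 8. The promoters of Atf7, a transcription factor of the ATF family, and Dazap1, an RNA-binding protein, had CHD4 folds of 4.78 and 4.83 and of 4.75 and 4.51 and H3K27ac in 8 of 8 libraries. The promoter of Ppp4r2, a phosphatase subunit, had CHD4 folds of 5.17 and 5.02 and H3K27ac in 5 of 8. The core word was present near the CHD4 centre in 15.3% ± 0.901 of the windows of this class (SD over the 2 CHD4 lists, n = 2), and 17.7% of its flanks, against 29.3% ± 0.938 and 27.9% in 4-list regions.

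Genes were linked to a region within 20 kb of a TSS. Of 21911 protein-coding genes, 10.8% had a 4-list region, 22.1% an Ikaros-only region and 0.867% a CHD4-only region. Among the 9438 genes with H3K27ac at the TSS these shares were 20.1%, 40.1% and 1.53%. The gene lists below were chosen with results of these data known, share members, and were described by counts without a test.

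Genes of the pre-B cell were more often near 4-list than near Ikaros-only regions. A 4-list region lay near 9 of 12 pre-B markers, 11 of 16 genes of pre-B receptor signalling and 12 of 20 B-lineage transcription factors, and an Ikaros-only region near 5, 6 and 10 of them, where of genes with H3K27ac at the TSS 20.1% and 40.1% had one. Igll1, which encodes a part of the surrogate light chain of the pre-B receptor, had 3 such regions, and the one at its TSS (chr16:16863320-16866377) had Ikaros folds of 12.2 and 12.4 and CHD4 folds of 3.95 and 4.36. The neighbouring Vpreb1, which encodes the other part, was within reach of the same 3 regions. Pik3ap1, an adaptor of B cell signalling, had Ikaros folds of 13.9 and 11.7 and CHD4 folds of 4.55 and 4.32 at its TSS (chr19:41384629-41386101). Pax5, Cd79b, Blnk, Bach2, Mef2c and Ets1 also had a 4-list region within 1 kb of a TSS.

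Ebf1 was the gene of these lists with all 3 classes nearby. At the Ebf1 TSS (chr11:44616182-44618268) a 4-list region had Ikaros folds of 7.103 and 13.9 and CHD4 folds of 3.85 and 3.65. Its 2 CHD4-only regions, in introns, had CHD4 folds of 3.01 and 2.78 and of 2.78 and 2.87. Rag1 and Rag2, the recombinase genes, had no region of the 3 classes within 20 kb.

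Of 17 genes taken from among those that the study names as repressed soon after induction, 13 had a 4-list region, 10 an Ikaros-only region and 1 a CHD4-only region, and Hs3st2 had none. In percent these were 76.5%, 58.8% and 5.88%, where of all genes 10.8%, 22.1% and 0.867% had such a region and of genes with H3K27ac at the TSS 20.1%, 40.1% and 1.53%. The study chose this list in the same cells, so it is no independent evidence of direction. At Ccnd2, a D-type cyclin, a 4-list region over a TSS (chr6:127151500-127153041) had Ikaros folds of 6.53 and 4.82 and CHD4 folds of 3.45 and 3.15, and 2 Ikaros-only regions lay beside it. Endod1 had a pair of 4-list regions, of which the intronic one (chr9:14364686-14367148) had Ikaros folds of 8.95 and 8.69 and CHD4 folds of 4.26 and 3.94. Myc, a driver of growth, had 2 Ikaros-only regions, and the strongest region at its TSS (chr15:61983674-61985997) had Ikaros folds of 7.67 and 6.00 but CHD4 in replicate 1 alone, with a fold of 4.20. Ramp1, a receptor-modifying protein, had a CHD4-only region (chr1:91187293-91188012), with folds of 3.55 and 3.48.

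In the NuRD and housekeeping lists fewer genes had a 4-list than an Ikaros-only region, as among all genes with H3K27ac at the TSS (20.1% and 40.1%). Of 14 genes of NuRD subunits, all with H3K27ac at the TSS, 3 (21.4%) had a 4-list region and 8 (57.1%) an Ikaros-only region, 6 of these at a promoter. The 3 with a 4-list region were Chd4 itself, Hdac1 and Gatad2a. The Chd4 promoter (chr6:125096086-125097399) was Ikaros only, with folds of 4.55 and 5.52, and a 4-list region lay 2381 bp from a TSS. Housekeeping genes had a 4-list region in 1 of 12 (8.33%) and an Ikaros-only region in 5 (41.7%). Adhesion genes had each in 6 of 15, and genes of the G1 phase had them in 7 and 5 of 16. Of 8 T cell genes 1 had a 4-list region (Trac, at a distance) and 0 an Ikaros-only region. Of 8 myeloid genes 2 and 1 had them, and of 8 genes of non-blood tissues 0 had either. H3K27ac lay at the TSS of 2, 0 and 0 of these genes, so the shares over all genes, 10.8% and 22.1%, are the closer reference. With 8 genes per list these counts do not set the lists apart from those shares.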

How the data were processed

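The authors aligned 41 bp paired-end reads to mm10 with Bowtie2 2.4.2, marked duplicates with Picard 2.23.7 and called peaks with MACS2 2.2.7.1, narrow for Ikaros and H3K27ac and broad for CHD4. Their methods cover 0, 1 and 2 h but not 30 min. Per the labels chromatin was cut by sonication or MNase, and the methods say only that it was digested. A blacklist is named for the coverage tracks but not for peak calling, and the input of each list is not given in the sources used here. For each peak the deposited files give the fold over background (a ratio), −log10 p and −log10 q, with no counts, so no count model was fitted and folds were ranked within lists.

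Groups were taken from titles. Peaks of the 4 lists at 1 h were merged and an overlap needed 1 bp. TSSs came from GENCODE M21 and sequence from GRCm38.p6 (mm10), whose lower-case bases are the masked repeats. The background of the Ikaros lists was solved from fold and p (peaks with −log10 p under 40), and 100% of the pileups came out whole within 0.02 fragments. Word shares came from 7 words. Named regions were the 8 of each class with the highest mean fold percentile. Python 3.11.15, numpy 2.4.6, pandas 2.3.3, scipy 1.17.1 and pysam 0.24.0 were used, and class assignment and tests were checked on simulated data. Members, lists and words were chosen with earlier results of these data known.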

Additional observations from a re-analysis of the deposited data

How the results depend on the processing

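Of 162 recomputed values, 128 kept their direction and their side of the threshold or stayed within the spread. The 5 H3K27ac comparisons passed at an exact adjusted p of 0.00781 in each alternative with 8 libraries. Without H3K27ac replicate 1 or 2 only 4 libraries are left, whose smallest exact p is 0.125, so that loss says nothing of the effect. Peak lists hold no counts, and how far depth limits the calls was not tested.

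With a −log10 q of at least 3 the counts were 6201 Ikaros only, 33 CHD4 only and 268 in all 4 lists, the deciles differed by 21.6 points and the promoter shares of 4-list and Ikaros-only regions by −23.8 points. With lists of equal size these values were 726, 644, 1526, 24.8 points and −27.8 points, and peak width (80 bp wider for Ikaros) and H3K27ac share (0.298 points) reversed. The cause was not tested. The difference between the outer deciles was 51.3 points with a fold of at least 3 and 57.5 points when ranked by −log10 p.

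Leaving out 1 library gave 4950 to 8456 Ikaros-only regions, 225 to 741 CHD4-only and 2606 to 4021 in all lists of the rest, and promoter differences (4-list minus Ikaros only) of −18.0 to −11.04 points. The H3K27ac shares then differed by 7.85 to 18.9 points (4-list minus Ikaros only), 14.4 to 29.2 points (minus CHD4 only) and 6.65 to 16.8 points (within deciles), and the ranks by 9.22 to 14.2 and 7.07 to 14.4. The highest values for the Ikaros-only shares and the deciles were those without Ikaros replicate 1, and the lowest for the CHD4-only shares and ranks those without Ikaros replicate 2 and CHD4 replicate 2.

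The labels number replicates 1 and 2 in both groups. With the replicate block the exact p of the 4 comparisons of lists was 0.5, the smallest for 2 pairs, and the outer deciles differed by 53.1 points in same-numbered pairs. Over 4-list regions the differences between replicates of Ikaros and of CHD4 correlated with r = 0.287, which with 2 pairs does not establish a pairing. Leaving out regions over 50% masked, added after seeing the data, moved no count or difference past 1.5 times. The promoter difference of CHD4-only minus 4-list regions ranged from −7.86 to 5.07 points over its alternatives.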
